A study of Mus musculus with 6 samples.

Results

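The piRNA cluster loci 7-qF3-3125, 7-qD1-19431, 2-qE1-35981 and 5-qG3-23659 are each named after a chromosome band rather than after a gene. They are 4 of the 214 piRNA genes that held reads placed in a single gene, and they were chosen by their read counts, which stood among the 10 highest. Small RNA was sequenced from purified primordial germ cells of E13.5 male mice. The control group was 3 libraries of cells left untreated, and the IR group was 3 libraries of cells treated with ionizing radiation; no strain or dose is stated, and the labels do not say whether the replicates came from separate embryos or litters, so a p-value here reflects library-to-library spread, which may be technical. A read was counted for a locus when all its places lay in that piRNA gene, with its copies entered once per library.

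Primordial germ cells are the fetal precursors of sperm and eggs. PIWI-interacting RNAs (piRNAs) are cut from long cluster transcripts, load into PIWI proteins and silence transposons in the germ line; primary piRNAs tend to begin with U. Other small RNAs have different origins: microRNAs are cut from hairpins and repress mRNAs through a seed near their 5′ end, and U2 and U6 are small nuclear RNAs of the spliceosome.

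The leading reads of the 4 loci had the sequence of such other RNAs. In 7-qF3-3125 and 5-qG3-23659 it was U2, which pairs with the branch site of introns; in 7-qD1-19431 it was miR-339-5p and miR-151, and in 2-qE1-35981 it was miR-9-5p. The sequences below carry the comparisons that follow. In the U2 lines, capitals mark GTAGTA, the stretch that pairs with the branch site (nucleotides 33 to 38 of the 191 of Rnu2-10), or ATTTTTG, the core of the binding site for Sm proteins (nucleotides 99 to 105); each motif was searched in sense and occurs once in U2. In the microRNA lines, capitals mark bases 2 to 8, the seed.
U2, first 42 nucleotides: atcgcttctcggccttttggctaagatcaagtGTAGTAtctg
7-qF3-3125, leading U2 5′-end read: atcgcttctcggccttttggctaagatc
7-qF3-3125, longest leading U2 5′-end read: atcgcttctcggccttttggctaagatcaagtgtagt
7-qF3-3125, U2 Sm-site read: ttaaatggATTTTTGgaagt
5-qG3-23659, leading U2 read: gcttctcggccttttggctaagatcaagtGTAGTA
5-qG3-23659, next U2 read: cggccttttggctaagatcaagtGTAGTA
mmu-miR-339-5p, RefSeq: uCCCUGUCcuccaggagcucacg
miR-151 read of 7-qD1-19431: tCGAGGAGctcacagtctagt
mmu-miR-9-5p, RefSeq: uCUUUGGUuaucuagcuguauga
miR-9-5p read of 2-qE1-35981: tCTTTGGTtatctagctgta

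Coordinates are those of GENCODE vM21 on GRCm38, the assembly called mm10. Rnu2-10, the annotated U2 gene, lies on the plus strand of chromosome 11 from 101658238 to 101658428 and inside no other gene. Mir339 is at 139369650 to 139369745 of chromosome 5, minus strand, in an intron of 3110082I17Rik. Mir151 is at 73254815 to 73254882 of chromosome 15, minus strand, in an intron of Ptk2, which encodes focal adhesion kinase. The 3 genes of miR-9 lie on the plus strands of chromosome 3 (Mir9-1, 88215598 to 88215686, intron of the lincRNA Gm3764), chromosome 13 (Mir9-2, 83738814 to 83738885, exon of the lincRNA C130071C03Rik) and chromosome 7 (Mir9-3, 79505264 to 79505353, intron of the lincRNA Mir9-3hg). Of these 3 microRNAs, 2 had a mature sequence in the RefSeq table (build GRCm38.p6). The positions of the band-named loci in the genome are not given here. Matching shows identity of sequence and not the place of transcription.

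The files held 7788 to 11280 reads per library, and 5889 to 9017 of them lay in a single piRNA gene. A count of 3 reads, the limit that a count of 0 allows, made up 0.0266% to 0.0385% of the reads of a library. Reads placed elsewhere are not in the files, whose totals are therefore smaller than the sequencing depth, and limits cover counting error only. No marker of primordial germ cells could be checked, because the files hold reads of cluster transcripts alone.

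Over the 6 libraries, 7-qF3-3125 had 1251 reads of 180 distinct sequences and rank 4 among all loci. 7-qD1-19431 had 1093 reads of 149 sequences and 2-qE1-35981 had 848 reads of 343. 5-qG3-23659, with 770 reads of 123 sequences, was the last of the 10 highest, and the next locus, 10-qB4-6488, had 719. These levels chose the loci and are given as a description. Reads were concentrated on few sequences: the 5 leading sequences gave 50.6% of the reads of 7-qF3-3125, 54.9% of 7-qD1-19431, 49.1% of 2-qE1-35981 and 69.5% of 5-qG3-23659, beside a median of 14.4% over the 108 loci with at least 50 reads. Structured RNAs (microRNA, small nuclear, small nucleolar, ribosomal, mitochondrial and the like) gave 94.3%, 85.9%, 55.9% and 86.8% of their reads in the same order, beside a median of 2.32% over the 108 loci. Other abundant loci had both traits as well: among the other loci of the 10 highest, structured RNAs gave 86.2% of reads in 14-qA3-2286, 89.3% in 14-qA3-19970 and 91.3% in pi-Tfcp2l1, and the 5 leading sequences gave 85.4% in 14-qA3-2286, 79.7% in 9-qC-10667 and 59.4% in pi-Tfcp2l1. The annotation used here lacks nuclear tRNA and 4.5SH RNA, so reads of those count as unmatched.

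**Figure D1:**
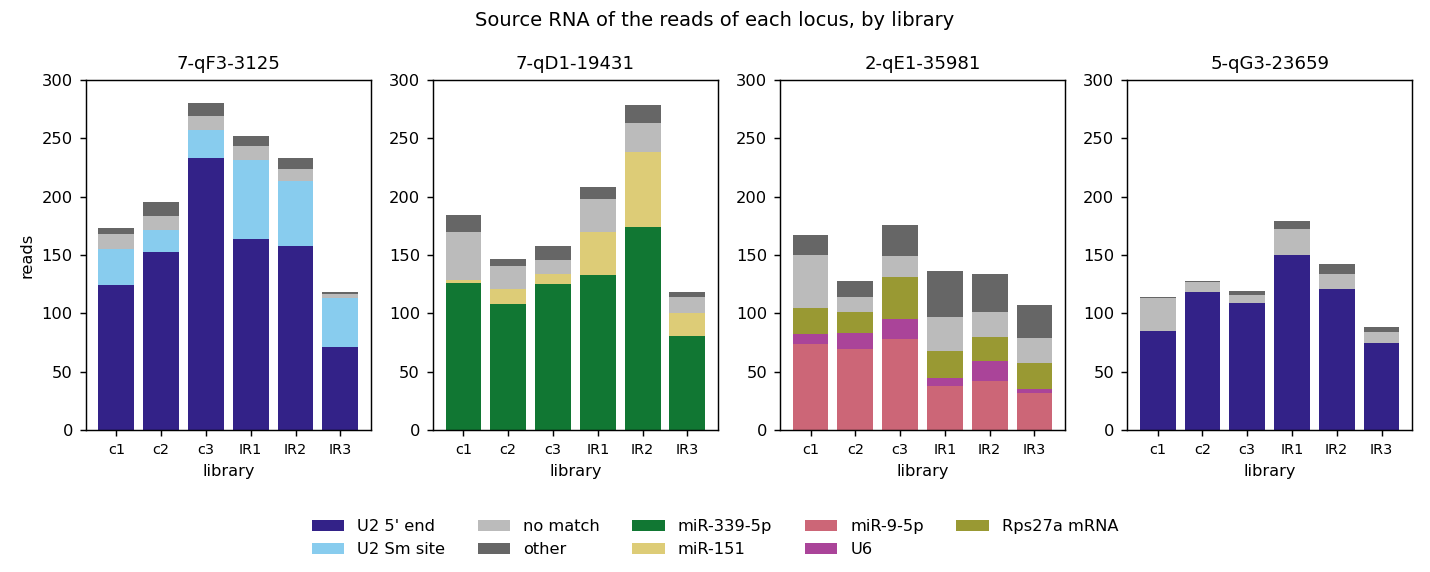
Reads of each locus in each library (y axis, reads; x axis, control libraries c1 to c3 and IR libraries IR1 to IR3), stacked by the RNA whose sequence they match. U2 fills most of 7-qF3-3125 and 5-qG3-23659, miR-339-5p most of 7-qD1-19431, and miR-9-5p is the largest single source of 2-qE1-35981.

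The size and first base of the reads followed these sources. In 7-qF3-3125, A was the first base of 70.0% of reads, and the lengths of 20 and 28 nt led with 270 and 234 reads. In 7-qD1-19431, 87.0% of reads began with U and the lengths from 20 to 23 nt held 215, 327, 256 and 259 reads, while reads of 24 to 32 nt, the size of piRNAs, made up 3.02%. In 2-qE1-35981, 61.9% began with U and 52.9% had 20 nt. In 5-qG3-23659 the lengths of 35, 29 and 30 nt led with 194, 173 and 126 reads, and 57.0% of reads had the size of piRNAs, the highest share of the 4; U began 36.8% of its reads, C 31.2% and G 27.7%. Strand was uneven in all 4, with 79.3% of reads on the minus strand of the cluster transcript in 7-qF3-3125, 89.2% in 7-qD1-19431, 13.8% in 2-qE1-35981 and 5.58% in 5-qG3-23659. These shares are summed over the libraries. First U and the share of 24 to 32 nt are compared between groups below, and strand was not tested between groups. Of the 259 plus-strand reads of 7-qF3-3125, 237 had the sequence of the U2 Sm site, which is compared between groups below.

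**Figure D2:**
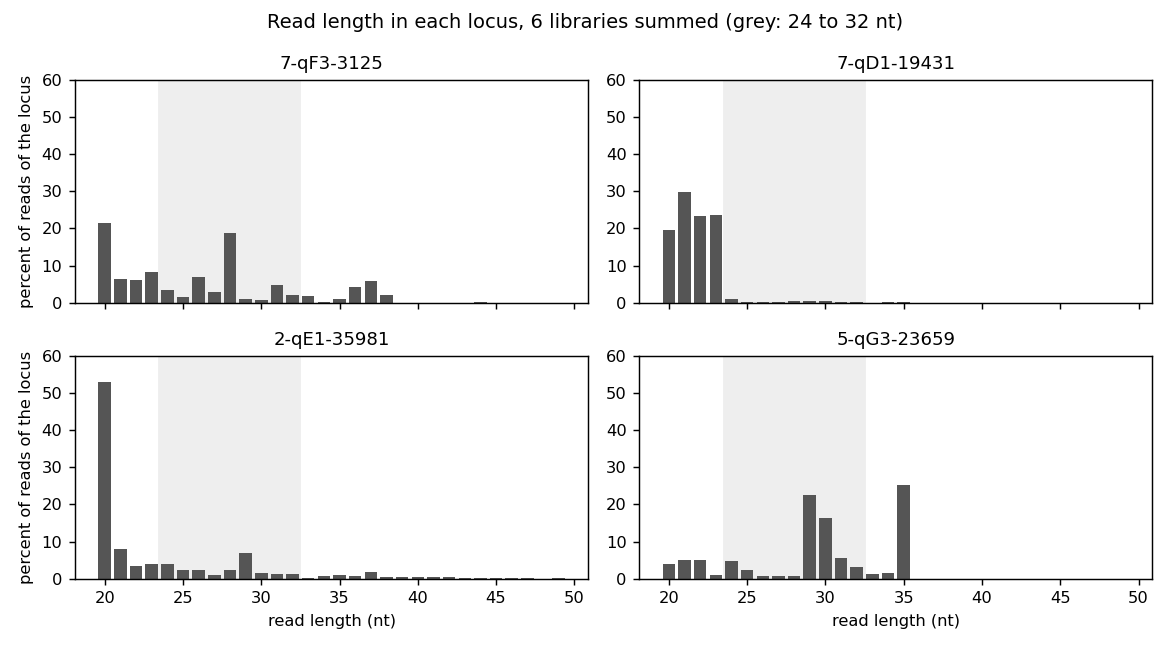
Share of the reads of each locus (y axis, percent, 6 libraries summed) at each read length (x axis, nt), with 24 to 32 nt shaded. 7-qD1-19431 lies almost wholly left of the shaded range, and 5-qG3-23659 has its peaks at 29, 30 and 35 nt.

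The first comparison asked whether the loci gave more or fewer reads after irradiation. None of the 4 passed edgeR's quasi-likelihood test (adjusted p under 0.05), and 1 of them had an unadjusted p under 0.05. Over all 103 loci tested, 7.77% passed, 3.88% as higher in IR and 3.88% as lower. An unadjusted p under 0.05 in the same test was found for 20 of these 103 loci. 2-qE1-35981 gave 167, 128 and 176 reads in the control libraries and 136, 134 and 107 in IR. Scaled by library (CPM, counts per library scaled to a common total) this was 21438 ± 341 in control and 15674 ± 1371 in IR (SD, n = 3), the IR libraries all lying lower (log2 fold change of IR over control (log2FC) -0.45 with SE 0.18, edgeR adjusted p = 0.226). Other settings gave an edgeR or DESeq2 adjusted p between 0.124 and 0.855. The log2FC was -0.09 (SE 0.23) once exact matches to annotated structured RNAs were left out. 7-qF3-3125 gave 173, 195 and 280 reads in control and 252, 233 and 118 in IR, with overlapping groups (log2FC -0.29 with SE 0.23, edgeR adjusted p = 0.462). It was -0.69 (SE 0.34, adjusted p = 0.272, edgeR) without exact matches to structured RNAs and -0.47 without control replicate 1. Reads that matched a structured RNA only by their first 18 nt stayed in. Of the 903 U2 5′-end reads of this locus, 757 were exact and the rest were kept.

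The other two loci had means that lay close together. 7-qD1-19431 gave 184, 147 and 158 reads in control and 208, 278 and 118 in IR (log2FC 0.11 with SE 0.21, edgeR adjusted p = 0.752). Its IR libraries spanned the control libraries, with IR replicate 2 the highest of the 6 in CPM and IR replicate 3 the lowest. 5-qG3-23659 gave 114, 128 and 119 reads in control and 179, 142 and 88 in IR, or 16822 ± 3731 and 16564 ± 3221 CPM (log2FC -0.01 with SE 0.23, edgeR adjusted p = 0.983).

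**Figure D3:**
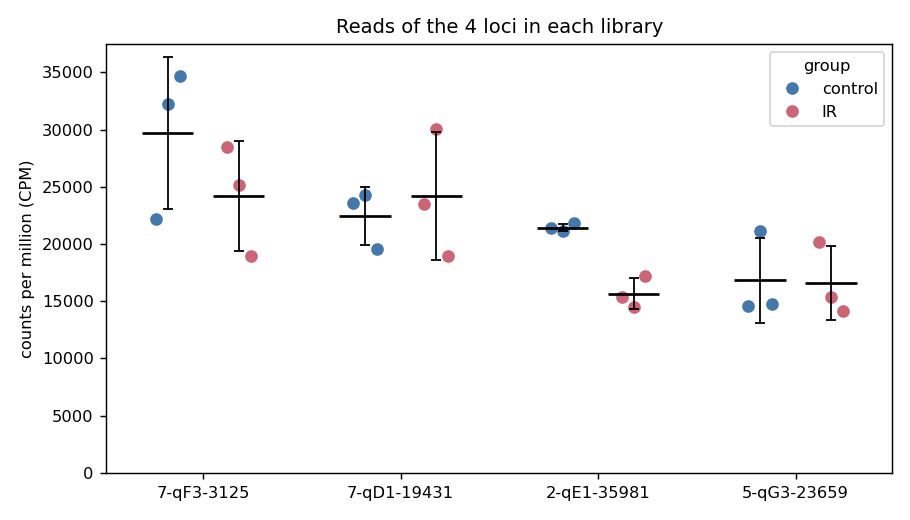
CPM of each locus in each library (points), with group means (lines) and SD (bars, n = 3). The control libraries of 2-qE1-35981 lie close together at 21438 ± 341 CPM, above all 3 IR libraries, and the groups overlap in the other 3 loci.

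Each locus was then split by the RNA that its reads matched, and every such part of every locus was tested in 1 fit of 115 features, of which 10.4% passed, 6.09% as higher and 4.35% as lower in IR. Of the 11 parts of the 4 loci that were tested, 2 were higher in IR, the Sm-site reads of U2 in 7-qF3-3125 and miR-151 in 7-qD1-19431, and 1 was lower, miR-9-5p in 2-qE1-35981. This split, and the cut of U2 into a 5′ end and an Sm site, were made after the values had been seen. A read joined a source by an exact match in sense or, failing that, by its first 18 nt.

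U2 reads of 7-qF3-3125 came from both strands of the cluster transcript. The U2 5′-end reads lay on its minus strand and the Sm-site reads on its plus strand, at separate places (leading reads at positions 4735 to 4762 and 3476 to 3495 of a cluster transcript). The Sm-site reads numbered 31, 18 and 24 in control and 67, 55 and 42 in IR. In CPM the groups did not overlap, and these reads rose from 3283 ± 499 to 6766 ± 591 CPM (SD, n = 3; fitted fold 2.05, log2FC 1.03 with SE 0.24, edgeR adjusted p = 0.0237). Of these 237 reads, 231 were 1 sequence of 20 nt that runs from nucleotide 91 to 110 of U2. Single sequences were also tested, 124 in all, of which 8.06% passed, 4.84% as higher and 3.23% as lower in IR. Of the 795 distinct sequences of the 4 loci 13 entered that test, and 2 passed as higher and 0 as lower. The Sm-site sequence numbered 30, 17 and 24 reads in control and 64, 55 and 41 in IR (log2FC 1.35 with SE 0.33, edgeR adjusted p = 0.0258). The split and the sequence test rest on the same reads.

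The U2 5′-end reads of 7-qF3-3125 did not pass. They numbered 124, 153 and 233 in control and 164, 158 and 71 in IR (log2FC -0.56 with SE 0.28, edgeR adjusted p = 0.296). Among the U2 reads of the locus, which needs no scaling between libraries, the Sm site took 13.3% ± 5.84 in control and 30.7% ± 5.85 in IR (SD, n = 3), with no overlap between groups (exact permutation p = 0.1, two-sided, the smallest that 3 against 3 allows; 0.133 adjusted over 4 such shares). The call of the Sm-site reads in the split fit was lost without control replicate 2 (adjusted p = 0.0776, edgeR), or 3 (0.0542), and without any 1 IR library (0.108, 0.0727 and 0.0908 for replicates 1, 2 and 3), while its log2 fold change stayed between 0.97 and 1.22 over all 11 alternatives.

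5-qG3-23659 held U2 5′-end reads in 85.5% of its counts and no Sm-site reads. They numbered 85, 118 and 109 in control and 150, 121 and 75 in IR, and the groups overlapped (log2FC -0.05 with SE 0.26, edgeR adjusted p = 0.892). They took 86.1% ± 10 of the reads of the locus in control and 84.7% ± 0.820 in IR (exact permutation p = 1). The remaining reads were mostly scattered: 88 reads of 82 sequences matched no annotated RNA.

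Reads of the U2 5′ end differed between the pair of U2 loci in where they began and ended. All 2354 reads of the U2 5′ end in the files, defined as beginning within its first 20 nucleotides, had a place in 1 or both of these loci: 903 in 7-qF3-3125 alone, 658 in 5-qG3-23659 alone, 762 in both, and 31 in both and also in 2-qE1-35981. Reads that begin at nucleotide 1 and match U2 exactly numbered 693, all of them in 7-qF3-3125 alone, and none ended past nucleotide 37, inside GTAGTA. Reads that end at nucleotide 38, the last base of GTAGTA, numbered 791, of which 652 were in 5-qG3-23659 alone, 139 in both and 0 in 7-qF3-3125 alone. Another 1 read ended past nucleotide 38. Which starts and ends appear also depends on which reads could be placed on each cluster transcript. U2 reads that fit no cluster transcript are not in the files, so these ends need not be those of U2 fragments in the cells. Reads with a place in any other piRNA gene, this pair included, were left out of the locus counts: 42.6% of the reads with a place in 7-qF3-3125 and 57.7% of those with a place in 5-qG3-23659.

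Within each locus the free end took a few preferred places. In 7-qF3-3125 the last nucleotide was most often 28, with 22, 34 and 47 reads in control and 29, 46 and 20 in IR, followed by nucleotides 37, 23 and 26 with 88, 79 and 66 reads in all. In 5-qG3-23659 the first nucleotide was most often 4, with 20, 50 and 25 reads in control and 45, 35 and 14 in IR. Nucleotides 10 and 9 followed with 161 and 120 reads. The leading U2 5′-end read gave 103 control and 95 IR reads in 7-qF3-3125 and 95 and 94 in 5-qG3-23659; the Sm-site read, the most abundant of 7-qF3-3125, gave 71 and 160. Counted over the whole files, U2 5′-end reads took 4.30% ± 0.799 in control and 3.62% ± 0.740 in IR (SD, n = 3), and U2 Sm-site reads 0.293% ± 0.0585 and 0.593% ± 0.105.

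**Figure D4:**
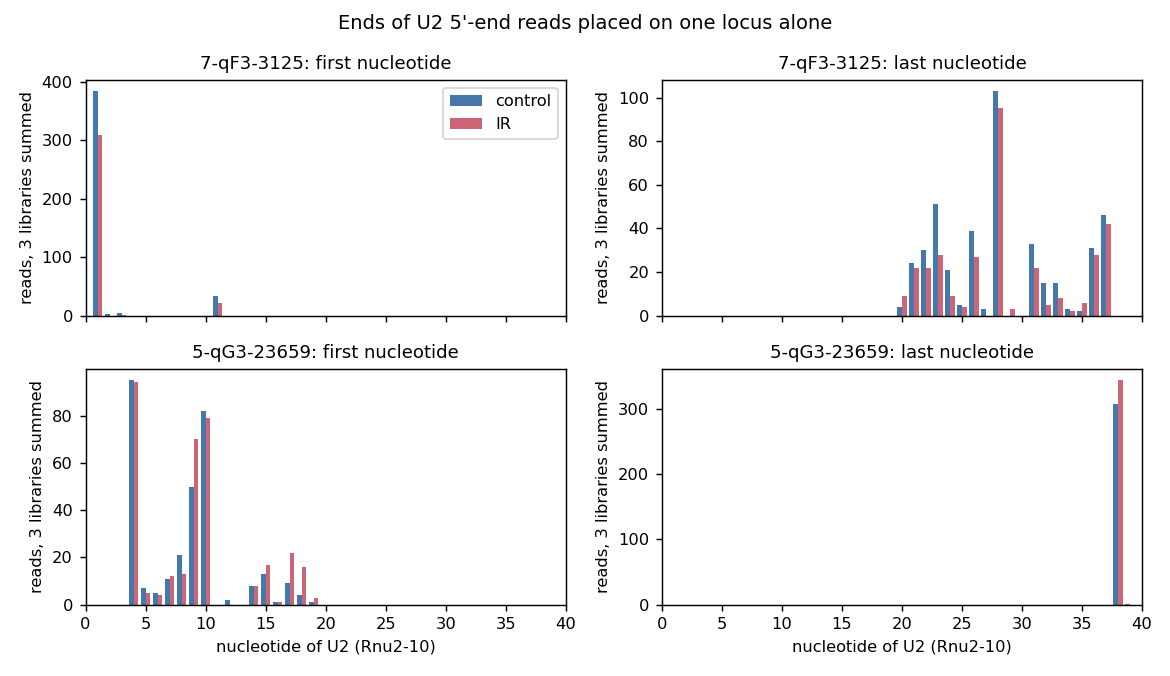
First (left) and last (right) nucleotide of U2, counted from its 5′ end, in exact U2 5′-end reads placed on 7-qF3-3125 alone (top) or 5-qG3-23659 alone (bottom); bars are reads summed over the 3 libraries of a group. Of 757 reads of 7-qF3-3125, 693 start at nucleotide 1 and 56 at nucleotide 11. Of 653 reads of 5-qG3-23659, 652 end at nucleotide 38.

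7-qD1-19431 was a locus of 2 microRNAs. Reads of miR-339-5p made up 68.3% of its counts and reads of miR-151 13.3%, all on the minus strand. They lay over each other, at positions 9560 to 9583 and 9552 to 9575 of the cluster transcripts, and their leading reads share a stretch of 10 nt, AGGAGCTCAC. All 145 miR-151 reads in the files lay in this locus alone.

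Reads of miR-151 numbered 3, 13 and 9 in control and 37, 64 and 19 in IR, the IR values all exceeding the control values. They rose from 1219 ± 897 to 4753 ± 2095 CPM (SD, n = 3; fitted fold 4.11, log2FC 2.04 with SE 0.52, edgeR adjusted p = 0.0303). Their leading sequence of 21 nt numbered 1, 5 and 3 in control and 24, 40 and 11 in IR (log2FC 3.12 with SE 0.54, edgeR adjusted p = 0.00351). Control counts of both were low, and both passed the filter for low counts only through their IR libraries. Without the filter the log2FC was 2.05 for all miR-151 reads and 3.02 for that sequence. The call of all miR-151 reads was lost without control replicate 1 (adjusted p = 0.0589, edgeR), or one of IR replicates 1 (0.0942) and 2 (0.116), with log2 fold changes from 1.60 to 2.66 over the alternatives, the highest without control replicate 2. That of the leading sequence was lost without control replicate 3 (0.0517).

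Reads of miR-339-5p did not pass. They numbered 126, 108 and 125 in control and 133, 174 and 81 in IR, or 16416 ± 1328 and 15703 ± 3205 CPM (log2FC -0.06 with SE 0.21, edgeR adjusted p = 0.880). Of the reads of both microRNAs together, miR-151 took 6.60% ± 4.21 in control and 22.6% ± 4.0 in IR (SD, n = 3), without overlap (exact permutation p = 0.1, two-sided, the smallest possible; 0.133 adjusted over 4 shares).

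The ends of these microRNA reads had a fixed start and a variable 3′ end, as microRNA reads are known to have. Of 747 miR-339-5p reads, 745 began at nucleotide 16 of the Mir339 transcript, and lengths of 20, 21, 22 and 23 nt held 138, 173, 178 and 251 reads. The full sequence of RefSeq, 23 nt, gave 173 reads, 97 in control and 76 in IR. Another 16.6% of miR-339-5p reads departed from the hairpin only in 1 or more T at the 3′ end and 8.17% only in A. T tails took 13.8% ± 5.11 in control and 19.6% ± 4.74 in IR, and A tails 10.3% ± 1.33 and 6.45% ± 1.15 (SD, n = 3), values that were not tested. Of 145 miR-151 reads, 108 had 21 nt and 29 had 22 nt. Which 3′ ends appear also depends on which reads could be placed on the cluster transcript, and the labels do not state the mismatches allowed.

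The rest of 7-qD1-19431 was small. A further 27 reads matched mt-Tg, the mitochondrial tRNA for glycine (9391 to 9458 of chromosome M), 17 in control and 10 in IR. Another 140 reads of 88 sequences matched no annotated RNA, 73 in control and 67 in IR.

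2-qE1-35981 combined 1 abundant microRNA with many sparse reads. miR-9-5p, a microRNA known for its abundance in the nervous system, gave 39.4% of its counts from 2 sequences, all on the plus strand at positions 19087 to 19107. Its reads numbered 74, 70 and 78 in control and 38, 42 and 32 in IR, and no IR library reached the lowest control library. They fell from 10196 ± 1273 to 4686 ± 570 CPM (SD, n = 3; fitted fold 2.18 lower, log2FC -1.12 with SE 0.22, edgeR adjusted p = 0.0141). The call was lost without IR replicate 1 (edgeR adjusted p = 0.0852) and without 2 (0.0606), with log2 fold changes from -1.19 to -1.03 over the alternatives.

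The leading miR-9-5p sequence, of 20 nt, did not pass when it was tested among single sequences. It numbered 68, 70 and 78 in control and 38, 40 and 32 in IR (log2FC -0.77 with SE 0.32, edgeR adjusted p = 0.176), and its adjusted p was 0.0452 without IR replicate 3. The scaling of that fit mattered to all sequences: with the file total as library size the median log2 fold change over the 124 sequences moved by -0.25. As a share of the reads of the locus, miR-9-5p took 47.8% ± 5.99 in control and 29.7% ± 1.71 in IR (SD, n = 3; exact permutation p = 0.1, two-sided, the smallest possible; 0.133 adjusted over 4 shares). The 334 miR-9 reads were all of 20 or 21 nt, and the full RefSeq sequence of 23 nt had 0 reads on the cluster transcripts, as had the full miR-9-3p. The counts therefore cover shorter forms of miR-9-5p that could be placed on the locus and not the level of the microRNA in the cells.

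**Figure D5:**
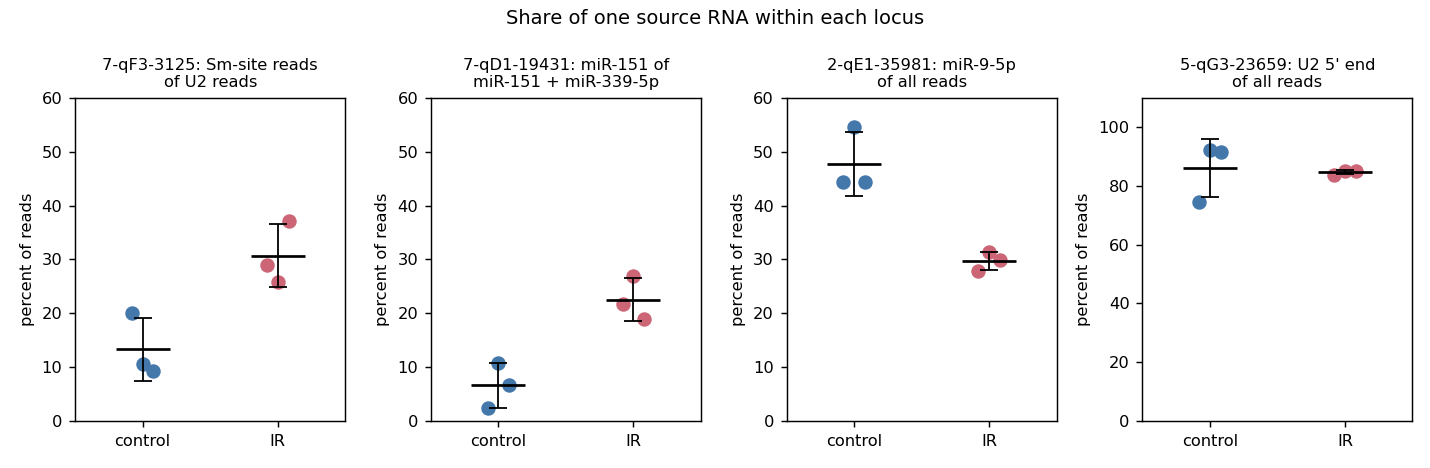
Share of 1 source RNA within each locus in each library (points; y axis, percent of the reads named above each panel), with group means (lines) and SD (bars, n = 3). The groups do not overlap in the first 3 panels and overlap in the fourth, the U2 5′ end in 5-qG3-23659. The first 3 panels show parts that were called in the split fit on the same reads, so they are no separate support. How often shares in other loci do not overlap was not counted.

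The other reads of 2-qE1-35981 were of mixed origin. Rps27a, which encodes a ribosomal protein fused to ubiquitin (chromosome 11, 29545846 to 29548109, minus strand), gave 144 reads of 128 distinct sequences, from 20 to 49 nt, all on the plus strand. They numbered 23, 18 and 36 in control and 23, 21 and 23 in IR, and the groups overlapped. U6 reads were led by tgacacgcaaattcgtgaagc, from nucleotide 74 to 94 of the RNA. All 65 U6 reads together numbered 8, 13 and 17 in control and 7, 17 and 3 in IR (log2FC -0.66 with SE 0.50, edgeR adjusted p = 0.494). The U6 log2FC was -1.42 without IR replicate 2 and -0.37 without IR replicate 3. Reads of 5S ribosomal RNA, led by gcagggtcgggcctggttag, numbered 1, 2 and 1 in control and 9, 3 and 6 in IR and were too few to enter the test. The large mitochondrial ribosomal RNA mt-Rnr2 gave 25 reads, 24 of them on the minus strand. A read of 1 C followed by a run of G, 29 nt long, numbered 3, 3 and 6 in control and 13, 13 and 4 in IR, so that the groups overlapped.

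Marks of piRNAs were then compared per locus. The share of reads of 24 to 32 nt differed by less than the groups' spread in 2-qE1-35981 (23.1% ± 7.64 in control, 22.9% ± 5.41 in IR; exact permutation p = 1) and overlapped between groups in the other 3 loci. The share of reads with first U was 14.3% ± 5.83 in control and 29.5% ± 5.14 in IR for 7-qF3-3125, and 70.7% ± 2.71 and 51.1% ± 1.39 for 2-qE1-35981 (SD, n = 3), without overlap in either (exact permutation p = 0.1, two-sided, the smallest possible; 0.4 adjusted over 8 tests). How often first-U shares in other loci do not overlap was not counted. Of the first-U reads of 7-qF3-3125, 234 of 259 were the Sm-site reads, and of those of 2-qE1-35981, 334 of 525 were miR-9-5p. With each distinct sequence counted once, the first-U difference in 7-qF3-3125 was -2.62 percentage points in place of 15.3. Counted in that way, the share of 24 to 32 nt differed by -18.1 points in 2-qE1-35981, in place of -0.187. In 5-qG3-23659 it differed by -17.2 points in place of -6.02 (exact permutation p = 0.1 in both). It differed by -1.88 points in 7-qF3-3125 and -9.87 in 7-qD1-19431 (exact permutation p = 0.6 and 0.3). In 7-qD1-19431 first U took 84.9% ± 3.43 and 88.7% ± 2.07, and in 5-qG3-23659 33.5% ± 7.72 and 39.6% ± 2.92 (exact permutation p = 0.2 and 0.3).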

How the data were processed

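Small RNA reads of 3 control and 3 IR libraries were used. The deposited unit is the count, the copies of a sequence in a library, listed with strand, place on a cluster transcript and number of places. Per the labels' protocols, size selection was 18 to 50 bp and libraries were made with a NEBNext small RNA kit. Per the submitters' processing notes the build was mm10; the aligner is not given in the sources cited. Positions are counted from 1.

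Loci, sequences and loci split by source RNA were each fitted over all features with edgeR 4.0.16 (R 4.3.3): TMM, filterByExpr, the quasi-likelihood test and Benjamini-Hochberg adjustment. SE was taken as log2 fold change over √F. Shares were compared by exact permutation over 20 regroupings. Python 3.11.15 was used. Sources came from GENCODE vM21 transcripts and RefSeq. Named sequences are the 5 with the most copies per locus and any past the threshold; the 5S, Rps27a, mt-Rnr2, mt-Tg and U6 values beyond these were chosen after seeing the values. The loci, lists and tests were chosen with earlier results of these data known. On simulated counts the fits recovered 57% of 2-fold and 99% of 4-fold changes among 103 loci (3.11% false calls), 24.2% and 86.7% among 124 sequences (2.56%), and 45% and 97.9% among 115 split features (5.51%). The simulation gave all features a common dispersion and was fitted without the filter, so these rates may not hold for the real counts. Alternatives were DESeq2 1.42.0, other scaling, filters and read sets, a replicate block, and each library left out.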

Additional observations from a re-analysis of the deposited data

How the results depend on the processing

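The split fit and the 4 within-locus shares were added after the data were seen. The shares of the Sm site, miR-151 and miR-9-5p use the reads of the split calls and are no separate support. The number of loci past the threshold was 8 and ranged from 3 to 15 with 1 library left out; on reads of 24 to 32 nt it was 0 by edgeR, with 5 of 28 at an unadjusted p under 0.05. It was 10 for sequences, from 4 to 21 with 1 library left out, and 12 for split features, from 2 to 11. The labels do not say whether same-numbered libraries of the 2 groups share more than a number. Their deviations from the group means correlated at -0.18, 0.097 and 0.11 over loci, and not every library correlated best with its own number. With so few libraries these values cannot decide whether the libraries were paired. With the replicate block, split calls fell from 12 to 1, and the adjusted p (edgeR) of miR-9-5p was 0.0549 (log2 fold change -1.12), of the Sm-site reads 0.0549 (1.04) and of miR-151 0.0831 (2.02); loci gave 7 calls and sequences 10. The Sm-site sequence was no longer past the threshold with the file total as library size (adjusted p = 0.0548, edgeR), without a filter (0.432), without control replicate 2 (0.143) or 3 (0.121), or IR replicate 1 (0.0703). In each of these cases the cause was not tested.

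With 1 library left out, the log2 fold changes of the split calls ranged from -1.19 to -1.03 for miR-9-5p, from 1.60 to 2.66 for miR-151 and from 0.97 to 1.22 for the Sm-site reads. With the file total as library size sequence calls were 4 higher and 5 lower, in place of 6 and 4.

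Several directions turned, most of them of values near 0. The log2 fold change of 5-qG3-23659 was 0.065 with the file total as library size, 0.079 on reads of 24 to 32 nt, 0.11 without annotated structured RNAs and from -0.17 to 0.17 with 1 library left out. Its U2 5′-end reads were at 0.030 with the file total and from -0.19 to 0.21 with 1 library left out. miR-339-5p was at 0.010 with the file total and from -0.25 to 0.063 with 1 library left out, and 7-qD1-19431 as a whole from -0.15 to 0.21. The difference in reads of 24 to 32 nt in 2-qE1-35981 ranged from -4.30 to 3.25 percentage points, and that of the U2 5′-end share in 5-qG3-23659 from -7.15 to 1.67, with 1 library left out. First-U differences that were not near 0 turned as well. With distinct sequences counted once, they were -2.62 in place of 15.3 in 7-qF3-3125 and -9.18 in place of 6.08 in 5-qG3-23659. 7-qD1-19431 had too few reads of 24 to 32 nt to be tested on them. DESeq2 changed none of the 3 split calls. At 770 to 1251 reads per locus, sources with few reads, such as 5S ribosomal RNA, could not be tested.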
